A study of Drosophila melanogaster with 2 samples.

Results

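Boundaries between long and short TADs were the positions in the genome of Kc167 cells where a topologically associating domain (TAD) of at least 100 kb met, without a gap, a TAD of at most 50 kb. They numbered 396 of the 1272 positions where TADs met on the chromosome arms 2L, 2R, 3L, 3R and X, or 31.1%. Kc167 is an established cell line of Drosophila melanogaster, and no treatment was applied, so the study has a single group. Chromatin contacts were measured in 2 replicates by Hi-C with the restriction enzyme DpnII, and the authors combined both into a single map of 34287983 di-tags, each of them 1 ligated pair of genomic fragments. Of these, 29686088 joined positions of the same arm. There was therefore 1 map and no spread between replicates, and no difference below has a replicate check or a test. The boundaries were chosen by the sizes of TADs that the authors derived from this same map, so the contacts within an arm beside them helped to choose them, and their values are given as a description.

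A TAD is a stretch of chromosome whose positions contact each other more often than they contact the neighbouring stretches, and a boundary is the point where this preference switches. In Drosophila, long TADs often hold silent or developmentally regulated chromatin, whereas boundary regions and short TADs are often rich in genes that are active in most cells. Contacts also become rarer with genomic distance in any chromosome, so that each comparison of TADs of unequal size has to be made at equal distance. Gene content and chromatin marks were not used here.

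The X chromosome held 98 of the 396 boundaries (of 244 on that arm), 2L held 87 of 237, 3R 84 of 292, 3L 74 of 254 and 2R 53 of 245. The long TAD lay to the left in 197 and to the right in 199. The long TADs ran from 100 to 620 kb with a median of 150 kb and quartiles of 120 and 200 kb. The short TADs were of 20 kb in 79 cases, 30 kb in 107, 40 kb in 100 and 50 kb in 109, and 1 measured 35.05 kb. The boundaries were not all separate observations. They were formed by 296 of the 411 long TADs and 316 of the 544 short TADs of the 5 arms, and 100 of these long TADs and 80 of these short TADs had such a boundary at both ends.

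The contact map averaged over the 396 boundaries showed a sharp change at the boundary, with opposite shapes on either side. Interaction was expressed as observed over expected, the normalised signal of a pair of 10 kb bins divided by the mean of its arm at the same distance, so that 1 is the arm's average. On the long side the values climbed away from the diagonal and reached their highest level far from it, whereas on the short side they were highest next to the diagonal and fell within a few bins. Beyond the short TAD the map was close to the average of the arm.

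**Figure D1:**
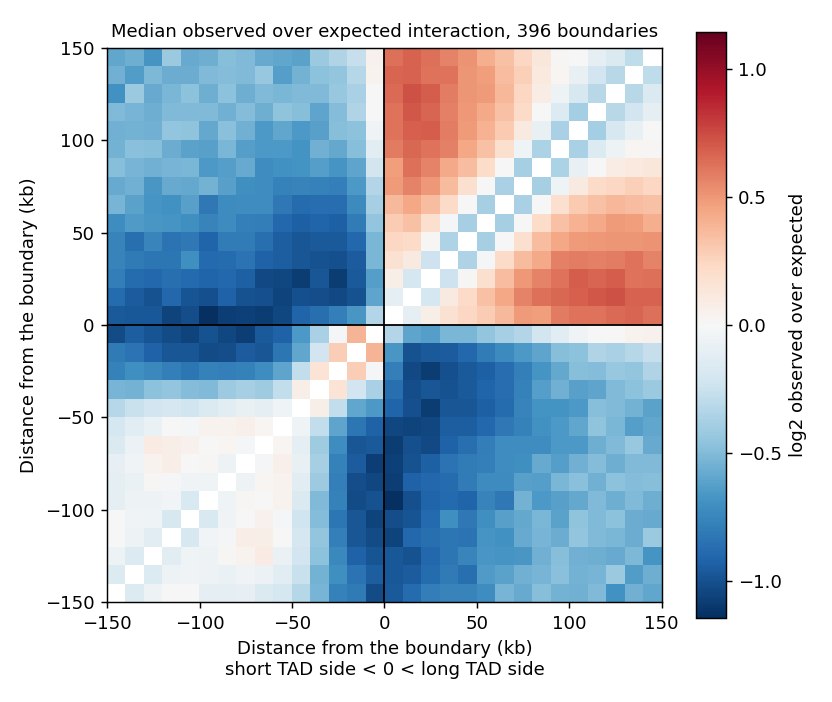
Median log2 observed over expected interaction of 10 kb bin pairs around 396 boundaries between long and short TADs, with both axes giving the distance from the boundary in kb and the long TAD at positive distances. The quadrant of the long side is above expected away from the diagonal, and nearly all pairs that cross the boundary are below expected. Within 50 kb of the boundary the short side of this map is above expected only between neighbouring bins. The map is not cut at TAD ends, so its short side includes pairs that reach past the short TAD.

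Contacts across the boundary were depleted at nearly all of the 396 positions, as at most boundaries of this map. Within 50 kb of the boundary and inside its flanking TADs, crossing pairs had a median observed over expected of 0.586 (quartiles 0.472 and 0.745 over boundaries), pairs within the long side 1.01 (0.885 and 1.20) and pairs within the short side 1.23 (1.03 and 1.52). The crossing value over the average of both within-side values, on a log2 scale, had a median of -0.98 with quartiles of -1.31 and -0.70. It was below 0 at 382 of 396 boundaries, where 96.3% of all 1272 boundaries were below 0, so the share of members is near that of the whole map. It was 83 of 97 where both TADs were long. At 189 of 396 the crossing value was at or below 0.5 times the within-side average, a share of 47.7% where all boundaries gave 42.5%. The corresponding log2 median was -1.05 at the 189 boundaries with at most 50 kb on both sides and -0.24 at the 97 boundaries with at least 100 kb on both sides, of which 3 were at or below 0.5 times. In this average over distances, boundaries with 1 short flank lay close to those with short flanks on both sides. They lay far from those with long flanks on both sides. At equal distance this varied. At 20 kb, crossing pairs over the shorter side had median ratios of 0.580 at members, 0.593 with both TADs short and 0.683 with both long. Over the longer side at 10 kb these were 0.893, 0.687 and 0.978, so that members lay nearer to boundaries with both TADs long.

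The 3 numbers behind each crossing value rested on very different amounts of data. Crossing pairs held between 28 and 3923 di-tags per boundary with a median of 1408, pairs within the long side between 0 and 9145 with a median of 2230, and pairs within the short side between 6 and 5761 with a median of 1778. A short TAD of 20 kb has only 1 bin pair, its 2 bins being neighbours.

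Compared at equal distance, the short side led between neighbouring bins and lost this lead with distance. For neighbouring bins, 10 kb apart, the median observed over expected was 0.869 within the long side and 1.32 within the short side. At 20 kb the medians were 1.06 within the long side and 1.10 within the short side. At 30 kb they were 1.15 within the long side and 0.949 within the short side, and at 40 kb 1.18 within the long side and 0.897 within the short side. The long side thus gained on the arm's average with distance while the short side lost, and within 100 kb of the boundary the long side went on to 1.32 at 50 kb and 1.51 at 90 kb.

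Ratios taken at each boundary had medians with the same course, in sets of boundaries that changed with distance. The ratio of the long side to the short side had a median of 0.658 at 10 kb and was above 1 at 44 of 396 boundaries, where 20.0% of all boundaries with TADs of unequal size were above 1 (longer over shorter TAD). At 20 kb the median ratio was 0.977 and 149 of 317 were above 1, near the 49.8% of all such boundaries. At 30 kb it was 1.22 with 139 of 209 above 1, beside 62.1% of all, and at 40 kb 1.23 with 78 of 108 above 1, beside 64.6%. The numbers of boundaries fall because only short TADs of sufficient length have such pairs. No fixed set of boundaries was followed across distances, and the part of this change of set in the course was not tested. The share of members above 1 stood furthest from that of all boundaries at 10 kb, where it was 11.1%. How far the long side came to lead at 30 and 40 kb depended on the normalisation. On the log2 scale the median ratio of the long to the short side was -0.60, -0.03, 0.29 and 0.30 at 10, 20, 30 and 40 kb with the deposited normalised signal. With raw di-tags it was -0.76, -0.20, 0.03 and 0.18, and with raw di-tags balanced to equal totals per bin -0.89, -0.35, -0.008 and 0.05. The lead of the short side at 10 kb and its loss with distance, in these changing sets, were thus seen in all 3 versions. A lead of the long side at 30 and 40 kb was largest with the deposited signal, and with balanced di-tags it was absent at 30 kb. Intervals of the median came from order statistics over boundaries of 1 map, which are not all separate, so they are no test. With the deposited signal they were 0.21 to 0.37 and 0.15 to 0.47. They ran from negative to positive values with raw di-tags (-0.099 to 0.17 at 30 kb, -0.072 to 0.40 at 40 kb). With balanced di-tags they did so too (-0.086 to 0.047 and -0.085 to 0.21).

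Averaged over all pairs within 50 kb, the log2 ratio of the long side to the short side had a median of -0.24 (quartiles -0.51 and 0.02), and the short side was higher at 291 of 395 boundaries, where the shorter side was higher at 62.6% of all. This average is set by the nearest pairs, since a short TAD holds few others. Without pairs 10 kb apart its median was 0.10, and with the 50 kb not cut at the ends of the TADs it was 0.06, both with the long side higher.

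The median of crossing pairs was below that of both sides at 10, 20, 30 and 40 kb. It was 0.793 at 10 kb, 0.647 at 20 kb, 0.593 at 30 kb, 0.576 at 40 kb and 0.453 at 90 kb. Relative to the short side at the same distance, crossing pairs had median ratios of 0.596, 0.580, 0.614 and 0.623 at 10, 20, 30 and 40 kb. Relative to the long side the ratios were 0.893, 0.600, 0.505 and 0.487 at these distances, with quartiles of 0.736 and 1.08 at 10 kb, the upper one being above 1. The ratios to the short side came from 396, 317, 209 and 109 boundaries, since only longer short TADs have the wider pairs. Those to the long side came from 395 boundaries at 10, 20 and 30 kb and 391 at 40 kb. Measured against the short TAD, in these changing sets, the boundary was about equally deep at each distance. Measured against the long TAD it was shallow between neighbouring bins and deepened with distance.

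**Figure D2:**
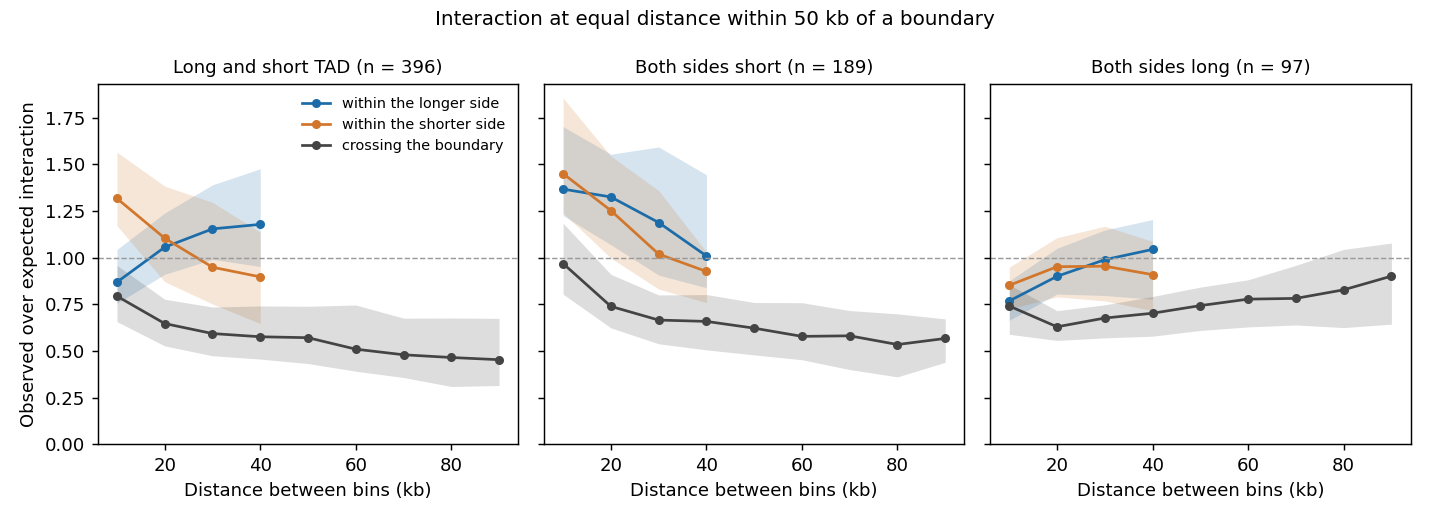
Median observed over expected interaction (vertical axis) against the distance between bins in kb (horizontal axis), for bins within 50 kb of a boundary and inside its flanking TADs, with shaded quartiles over boundaries. Left, 396 boundaries between long and short TADs, where the lines of both sides cross between 20 and 30 kb, next to 189 boundaries with short TADs on both sides and 97 with long TADs on both sides.

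The bins that touch the boundary showed how far each TAD reached. Towards its own side, the last bin of the long TAD had a median observed over expected of 0.931 at 10 kb. It had 1.18 at 40 kb and 1.54 at 100 kb, the highest median up to that distance. In a long TAD of 100 kb, that distance lies just past its end. Across the boundary the same bin had 0.793 at 10 kb, 0.550 at 40 kb and 0.453 at 100 kb. The last bin of the short TAD interacted with its own side at 1.31 at 10 kb, 0.985 at 20 kb, 0.633 at 40 kb and 0.481 at 100 kb, where the later distances lie beyond the short TAD. Across the boundary, into the long TAD, it had 0.793 at 10 kb, fell to 0.648 at 30 kb, and then climbed to 0.770 at 70 kb and 0.916 at 100 kb. From 40 kb on, the last bin of the short TAD therefore had a higher median towards the long TAD than towards its own side.

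Summed over 10 to 100 kb, the last bin of the long TAD made 64.6% of its normalised signal with its own side (quartiles 59.7 and 68.6%), and the last bin of the short TAD 53.6% (48.5 and 59.5%). The difference, long minus short, had a median of 10.7 percentage points with quartiles of 2.37 and 18.9. The own side was not cut at the end of the TAD. Most of these distances lie past the end of the short TAD but inside the long one, so the size limits favour the long edge. The long edge had the higher share at 314 of 394 boundaries (79.7%), where the edge of the longer TAD did at 72.1% of all boundaries with unequal TADs. It did so at 89 of 145 boundaries with short TADs on both sides and at 51 of 88 with long TADs on both sides.

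**Figure D3:**
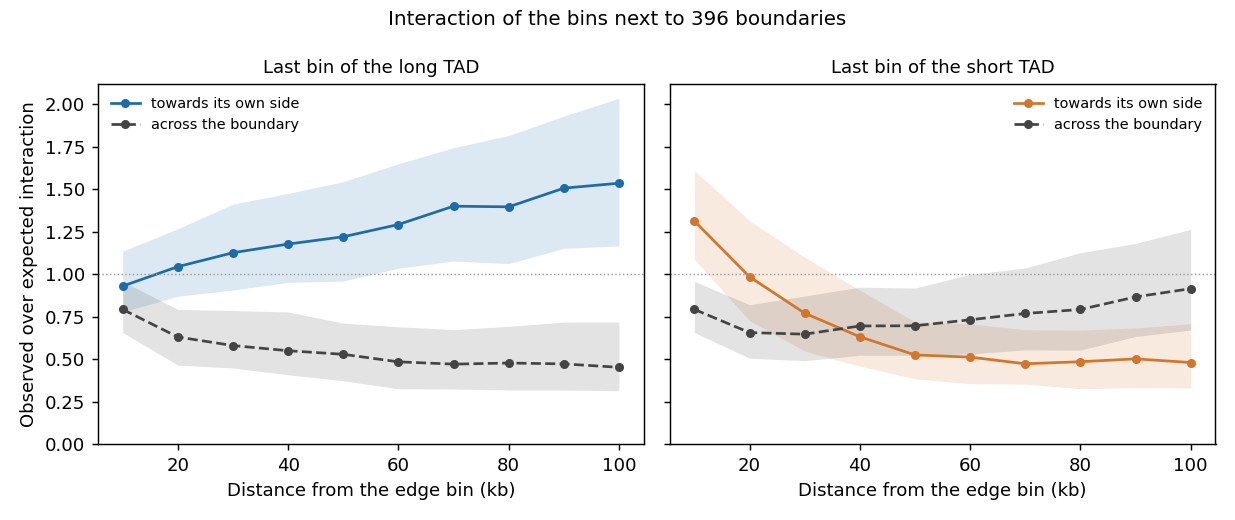
Median observed over expected interaction (vertical axis, shaded quartiles) of the 10 kb bins that touch 396 boundaries, against the distance from the bin in kb. The last bin of the long TAD (left) gains towards its own side up to 1.54 at 100 kb, and the last bin of the short TAD (right) starts at 1.31 and drops below its own line across the boundary from 40 kb on.

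The balance between short-range and long-range interaction changed within a few bins of the boundary. For each bin, the normalised signal at 10 to 50 kb was divided by that at over 50 and up to 500 kb within the arm. The median over boundaries of this ratio was 1.22 on the short side (quartiles 0.970 and 1.53) and 0.884 on the long side (0.718 and 1.15), taking bins within 50 kb and inside the TADs. The log2 difference, short over long side, was 0.37 with quartiles of 0.07 and 0.72. The short side was higher at 320 of 393 boundaries (81.4%), where the shorter side was higher at 66.6% of all boundaries with unequal TADs. The share was 72 of 87 with long TADs on both sides and 55 of 145 with short TADs on both sides.

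By position, the median ratio was 1.25 in the third, 1.26 in the second and 1.09 in the first bin of the short side counted from the boundary, against 0.854, 0.839 and 0.871 in the first, the second and the third bin of the long side. Deeper in the long TAD it was 1.01 in the bin at 60 to 70 kb. On the other side it stayed between 1.15 and 1.26 up to 100 kb, past the end of the short TAD. The low point of the profile was thus in the long TAD close to the boundary and not in its interior.

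Broken down by distance, the excess of short-range interaction on the short side lay between neighbouring bins alone. The summed signal at 10 kb had a median of 1848 per bin on the short side and 1333 on the long side, a log2 difference of 0.45 (quartiles 0.21 and 0.67), and was higher on the short side at 347 of 396 boundaries, where the shorter side was higher at 75.7% of all. At 20 to 50 kb the medians were 1668 on the short side and 2336 on the long side, a log2 difference of -0.49 (-0.69 and -0.23), with the short side higher at 30 of 396 beside 19.6% of all. At 60 to 100 kb they were 833 on the short side and 1428 on the long side, a log2 difference of -0.71 (-1.04 and -0.47), with the short side higher at 21 of 396 beside 24.4% of all. Long-side bins thus had the higher signal in both bands from 20 to 100 kb, by the wider margin at 60 to 100 kb. These sums were not cut at TAD ends. A TAD of at most 50 kb holds no bin pair 60 to 100 kb apart, whereas a long TAD does. The size limits themselves therefore favour the long side in that band.

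The difference became smaller further out. The log2 difference, short over long side, was -0.39 at 110 to 200 kb, -0.29 at 210 to 300 kb and -0.15 at 310 to 500 kb (0.01 with balanced di-tags), and the short side was higher at 98, 124 and 128 of 396 boundaries, beside 33.7%, 36.6% and 37.2% of all. When the short range was taken from 20 kb instead of 10 kb, the log2 difference in the short-range to long-range ratio had a median of -0.02 in place of 0.37. The higher ratio of the short side thus came with a higher signal between neighbouring bins and a lower signal beyond 50 kb, while the signal at 20 to 50 kb was lower there.

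**Figure D4:**
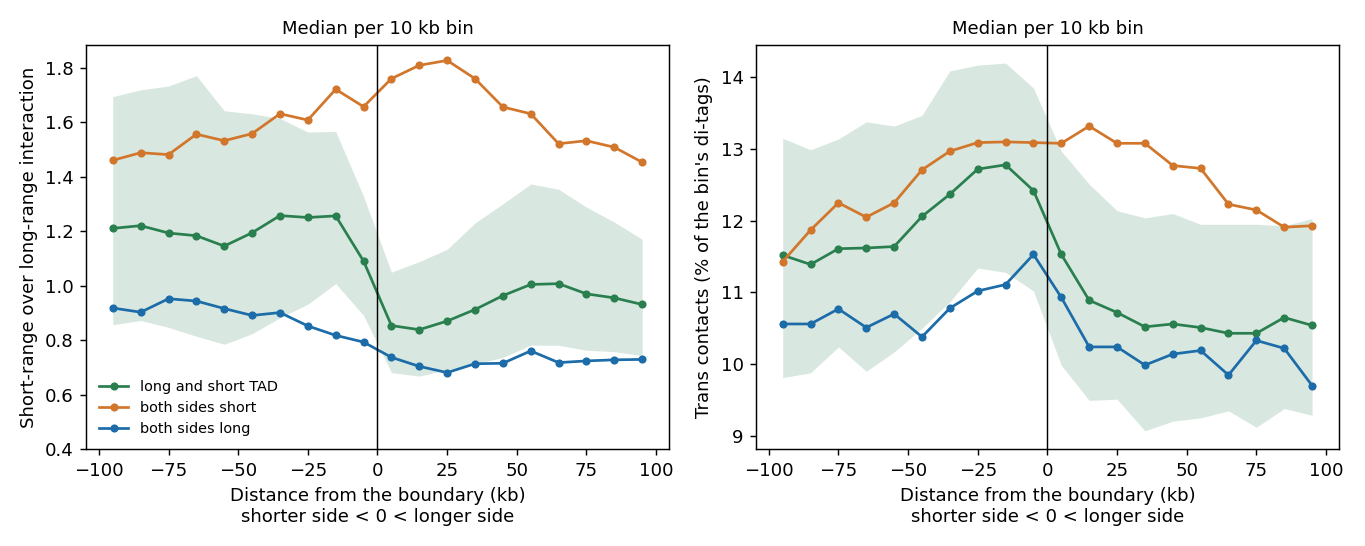
Median per 10 kb bin of the short-range to long-range ratio (left) and of the share of di-tags made with another arm in percent (right), against the distance from the boundary in kb, with the shorter TAD at negative distances. Boundaries between long and short TADs (green, shaded quartiles) step down at the boundary in both measures and mostly lie between boundaries with short TADs on both sides (orange) and those with long TADs on both sides (blue).

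The size of the long TAD went together with the ratio, and that of the short TAD less so. With long TADs of 100 to 140 kb the log2 difference had a median of 0.13 and the short side was higher at 121 of 177 boundaries. With 150 to 190 kb it was 0.42 and 97 of 108, and with 200 kb or more 0.68 and 102 of 108. A longer TAD contains more pairs of bins over 50 kb apart, and the long-range sum of its bins includes them. By the size of the short TAD the medians were 0.17 at 20 kb, 0.36 at 30 kb, 0.37 at 40 kb and 0.49 at 50 kb. The depletion across the boundary did not follow either size in this way. Its log2 median was -1.05, -1.0, -0.96 and -0.98 with short TADs of 20, 30, 40 and 50 kb, and -0.97, -1.10 and -0.93 in the 3 classes of long TAD.

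**Figure D5:**
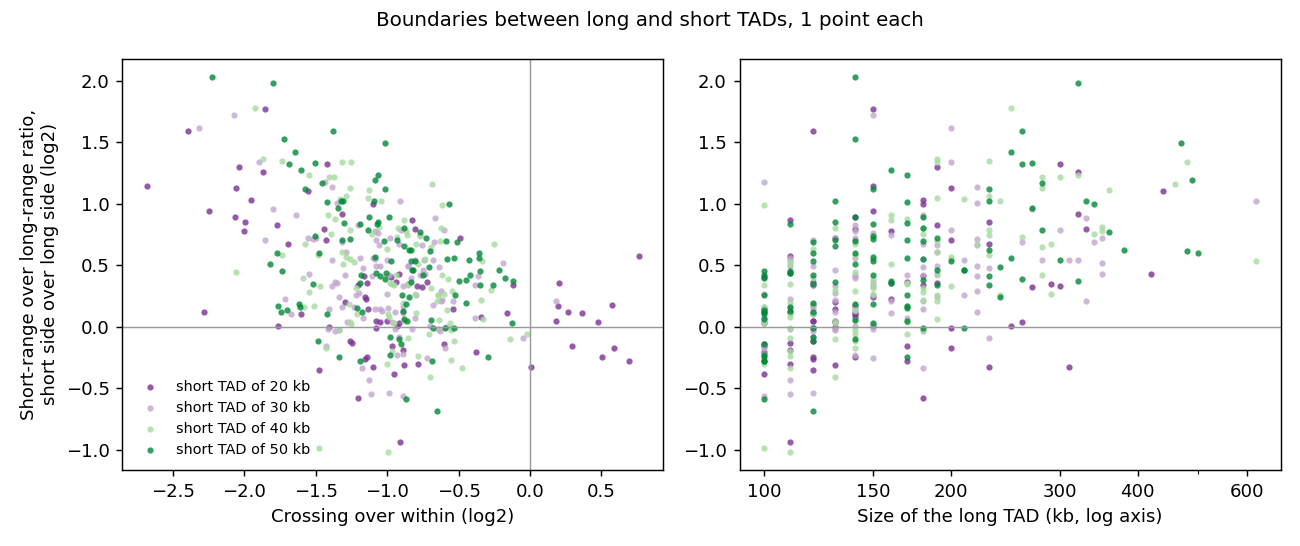
Log2 difference in the short-range to long-range ratio, short over long side (vertical axis), of each boundary between a long and a short TAD, against its log2 crossing over within value (left) and the size of the long TAD in kb on a log axis (right), coloured by the size of the short TAD. Values above 0 on the vertical axis are 320 of 393, and those of boundaries with a long TAD of 200 kb or more lie above 0 in 102 of 108 cases.

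The chromosome arms gave similar values. The crossing log2 median was -0.91 on 2L, -0.98 on 2R, -0.97 on 3L, -0.94 on 3R and -1.08 on X, each within the quartiles of the others. The log2 difference in the ratio was 0.31 on 2L, 0.35 on 2R, 0.56 on 3L, 0.36 on 3R and 0.39 on X. It was 0.37 with the long TAD to the left and 0.39 with the long TAD to the right, so that the orientation along the arm made little difference.

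Contacts of the long TAD did not always decrease in the order of its neighbours. Bins of the long TAD within 100 kb had a median observed over expected of 0.571 with the TAD beyond the short one (quartiles 0.386 and 0.855) and of 0.641 with the adjacent short TAD (0.491 and 0.851). Of the TAD beyond, only the 50 kb nearest the short TAD were taken, whatever its size, and of the short TAD all bins. Both are relative to the mean of the arm at the same distance, so the greater distance of the TAD beyond is taken into account. The TAD beyond had the higher value at 180 of 385 boundaries (46.8%), where it did at 29.7% of all boundaries with unequal TADs. The size of the TAD beyond went together with this count. It was 27 of 117 where that TAD was itself at most 50 kb, 49 of 108 at 60 to 90 kb, and 104 of 160 at 100 kb or more. The shares of all boundaries by the size of the TAD beyond were not computed, so this course cannot be called particular to members. Median values with the TAD beyond were 0.426, 0.590 and 0.689 in these classes, against 0.665, 0.631 and 0.618 with the short TAD. In these counts a long TAD on the far side of a short one thus had the higher value more often than not, and a short TAD there did not. The 160 boundaries are both ends of 80 short TADs. Each pair of long TADs around such a short TAD therefore entered once from either end, with partly the same contacts. They are not 160 separate observations.

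Contacts with other arms were expressed as a share of all di-tags of a bin. Most of that total are contacts within the arm, which were used to find the TADs, so the share is not independent of how the boundaries were chosen. Of the raw di-tags of short-side bins a median of 12.7% over boundaries were made with another arm (quartiles 11.6 and 14.0%), against 10.9% of those of long-side bins (9.94 and 12.1%). The difference, short minus long side, had a median of 1.80 percentage points with quartiles of 0.66 and 2.78. The short side had the higher share at 328 of 396 boundaries (82.8%), where the shorter side did at 73.1% of all boundaries with unequal TADs, at 77 of 145 with short TADs on both sides and at 55 of 88 with long TADs on both sides.

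Pooled over bins, 12.94% of the di-tags of 1146 short-side bins were made with another arm (95% Wilson interval 12.91 to 12.96%), 11.24% of those of 1976 long-side bins (11.22 to 11.26%), and 11.43% of those of all other bins of the 5 arms (11.42 to 11.44%). These intervals cover counting error only. Counting other chromosomes and not the other arm of the same chromosome, the shares were 10.01% on the short side, 8.74% on the long side and 8.58% elsewhere. The short-side bins thus stood above the average of the other bins. At boundaries with short TADs on both sides the first bins had still higher pooled shares, 13.42% on the shorter and 13.35% on the longer side, so a high share was not limited to short TADs with a long neighbour. Over all members the number of di-tags per bin had medians of 5513 on the short side and 5311 on the long side. By position the pooled share was 12.9% in the third bin of the short side, 12.7% in the first, 11.8% in the first bin of the long side and 11.1% in the third.

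Short TADs of 20 kb had the smallest median difference in the trans share among the 4 sizes, 0.67 percentage points, with the short side higher at 47 of 79, beside 98 of 107, 89 of 100 and 93 of 109 for those of 30, 40 and 50 kb. Their bins also held fewer di-tags, with medians of 4152 on the short side and 5199 on the long side, and the part of this in the trans share was not tested.

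The most strongly depleted boundaries were mostly formed by 20 kb TADs with very high interaction between their 2 bins. Coordinates are those of release 5 of the genome (dm3), counted from 1. The lowest crossing over within value, -2.68 on the log2 scale, was that between the long TAD 3L:21020001-21170000 and the short TAD 3L:21000001-21020000. There the crossing pairs had an observed over expected of 0.416 (716 di-tags in 10 bin pairs), the long side 0.759 and the single pair of the short side 4.58 (806 di-tags). The next, at -2.39, lay between 2L:20290001-20410000 and the 20 kb TAD 2L:20270001-20290000. Its crossing pairs were near the arm's average, at 0.917 (810 di-tags), but the single pair within the short side had 8.44, from 499 di-tags in bins with a mean of 2675 di-tags each, against 6156 on the long side. Its low value thus came with a high short side and not with rare crossing contacts.

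The third lowest, at -2.32, lay between 2L:8740001-8940000 and the 30 kb TAD 2L:8710001-8740000, with 0.447 across (472 di-tags in 15 bin pairs), 1.05 within the long side and 3.40 within the short side. The fourth, at -2.28, lay between 3L:9720001-9830000 and the 20 kb TAD 3L:9830001-9850000, with 0.424 across (383 di-tags), 1.595 within the long side and 2.53 within the short side. In the third, both edge bins kept to themselves, since 71.7% of the signal of the long edge and 86.0% of that of the short edge at 10 to 100 kb stayed on their own side.

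At the other end, the 4 boundaries with the highest values had more interaction across than the average of both sides, and all 4 had a 20 kb TAD with little interaction between its 2 bins. The highest, 0.76, lay between 2L:1990001-2100000 and 2L:2100001-2120000. Its short side rested on 6 di-tags, in bins with a mean of 1090 di-tags against 5223 on the long side. The next lay between 3R:23530001-23700000 and 3R:23700001-23720000 at 0.69, with an observed over expected of 0.876 across, 0.834 within the long side and 0.2505 within the short side, the last from 22 di-tags. The last of the 4 were both on X, between X:4060001-4260000 and X:4040001-4060000 at 0.59, with 47 di-tags within the short side, and between X:4600001-4720000 and X:4720001-4740000 at 0.58, with 59. Of the 14 boundaries above 0, 13 had a 20 kb TAD and rest on such a single pair.

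The 3 largest differences in the short-range to long-range ratio lay next to short TADs of 40 and 50 kb. The highest lay between 3R:2020001-2160000 and the 50 kb TAD 3R:2160001-2210000, with a ratio of 2.12 on the short side and 0.521 on the long side, a log2 difference of 2.03. Its crossing value was among the lowest too, at -2.22, with 893 di-tags in 25 bin pairs and an observed over expected of 0.204. The next lay between X:12660001-12980000 and the 50 kb TAD X:12610001-12660000, with 3.35 on the short side and 0.848 on the long side (log2 1.98). The third lay between X:19800001-20050000 and the 40 kb TAD X:19760001-19800000, with 1.07 on the short side and 0.311 on the long side (log2 1.78). In this last case the bins of the short side held a mean of 5393 di-tags and those of the long side 243.5, with no di-tag at all between the long-side bins, so its long-side value rests on very few contacts.

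At the lowest 3 the order was turned round. Between X:15380001-15490000 and the 40 kb TAD X:15340001-15380000 the ratio was 0.794 on the short side and 1.603 on the long side, a log2 difference of -1.01. Between X:6640001-6740000 and the 40 kb TAD X:6740001-6780000 it was 1.22 on the short side and 2.42 on the long side (-0.99). Between 3R:19050001-19160000 and the 20 kb TAD 3R:19160001-19180000 it was 1.12 on the short side and 2.14 on the long side (-0.94). All 3 had long TADs of 100 or 110 kb, and crossing values of -0.99, -1.48 and -0.91, so they were as depleted as the others. In the second case the short-side bins held 10830 di-tags each on average, beside 5834 on the long side. In the third the long-side bins held 11470, beside 5580 on the short side. Both 10830 and 11470 were the highest of their side among members, and the part of this in the ratio was not tested.

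The largest long TAD, 2L:17500001-18120000 with 620 kb, had such a boundary at both ends, and these differed. Towards the 30 kb TAD 2L:17470001-17500000 the crossing value was -0.91 on the log2 scale, with 0.632 across (1002 di-tags), 0.927 within the long side and 1.45 within the short side. Towards the 40 kb TAD 2L:18120001-18160000 it was -0.34, with 0.752 across (1248 di-tags), 0.873 within the long side and 1.03 within the short side. The ratio was low within the long TAD at both ends, 0.508 and 0.441, and higher on the short side, 1.03 and 0.638.

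Boundaries just inside and just outside the size limits differed less in some measures than in others. With a long TAD of 100 kb (41 boundaries) the crossing log2 median was -0.96 and the log2 difference in the ratio 0.04, against -1.01 and -0.08 at 49 boundaries with a TAD of 90 kb that missed the limit. With a short TAD of 50 kb (109 boundaries) they were -0.98 and 0.49, against -0.79 and 0.49 at 81 boundaries with 60 kb. The trans difference was 1.72 points at 100 kb against 0.76 at 90 kb, and 1.78 at 50 kb against 1.51 at 60 kb.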

How the data were processed

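The authors aligned the reads of 2 replicates to release 5 of the genome with HiCUP (Bowtie2 2.2.6 per the processing notes) and combined the di-tags in 10 kb bins. Deposited were counts of raw di-tags per bin pair, a signal normalised by the authors with GOTHiC for the same pairs, and HiCseg segments, a deposited file of starts and ends in other units (bp), with the weakest borders removed. Removing weak borders leaves fewer and longer TADs.

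Members and lists were chosen with earlier results of these data known. Of 11900 bins, 83 without di-tags were left out. Observed over expected includes pairs at 0. Averages over distances mix distances, so values at equal distance stand beside them. Each side needed at least 2 filled bins. For the ratio, bins whose sum up to 1 Mb lay above the 97.5 percentile were left out. Regions named are the 4 lowest and 4 highest in crossing over within, the 3 highest and 3 lowest in the ratio difference, and both boundaries of the largest long TAD. With 1 pooled map of about 5500 di-tags per bin, quartiles over boundaries are given. They show how boundaries differ from each other and not the precision of a value. Alternatives were raw and balanced counts, other sizes, distances and windows, and arms left out. Statistics, tested on simulated maps, used pandas 2.3.3, scipy 1.17.1 and numpy 2.4.6 under Python 3.11.15, and matplotlib 3.10.9 drew the figures. The annotation at hand is of another release, so genes were not analysed here.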

Additional observations from a re-analysis of the deposited data

How the results depend on the processing

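Of 96 alternative values of the main results, 74 stayed within the 95% interval of the main value. Another 19 left it in the same direction and 3 changed sign. For medians, the interval came from their order statistics over boundaries, which are not all separate, and it is no test. Many of the 96 left out 1 arm and so kept most of the boundaries. The 19 include the numbers of boundaries at other size limits, which have no interval. Values by distance are not among the 96, and most of them left their interval with raw or balanced di-tags. The 3 that changed sign concerned interaction within the long over the short side (main -0.24, log2), which was 0.062 with 50 kb not cut at TAD ends and 0.10 without pairs 10 kb apart, and the ratio difference (main 0.37), which was -0.020 with the short range from 20 kb. With balanced di-tags, long over short at 30 kb (main 0.29) was -0.0076 and the signal at 310 to 500 kb, short over long side (main -0.15), was 0.013, both of the other sign. Long over short within 50 kb was -0.37 with raw di-tags, -0.53 with balanced di-tags and -0.34 within 30 kb. The ratio difference was 0.44 with raw di-tags, 0.45 balanced and 0.43 within 30 kb, and the own-side difference (main 10.7 points) was 7.97 raw and 6.92 balanced. Crossing over within (main -0.98) was -0.92 within 30 kb and -0.86 with 50 kb not cut. With limits of 120 and 40 kb, there were 233 boundaries and long over short was -0.32. With 150 and 30 kb, there were 94, with -0.41, a ratio difference of 0.49 and crossing of -1.08. The trans difference (main 1.80 points) was 1.31 with other chromosomes only, and contacts between arms of short with short sides (main 1.09) were 1.08 without 2L and 1.08 without X. The long TAD's value with the TAD beyond over that with the short TAD (log2, main -0.09, interval -0.20 to 0.05) was -0.11 raw, -0.15 balanced and -0.06 with arm ends left out. The alternatives on arm ends, trans contacts and values by distance were chosen after seeing the data. No paired analysis was possible because both replicates were pooled in 1 map, and leaving out a replicate could not be run.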

Other observations

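Bins of short and long sides of these boundaries also differed in which bins of other arms they contacted. Between arms, pairs of 2 short-side bins held 47752 di-tags over 521683 bin pairs, 1.09 times the number that the totals of both bins gave (exact Poisson interval 1.08 to 1.10, counting error only). Pairs of a short-side and a long-side bin held 0.970 times (0.965 to 0.976, 124299 di-tags), and pairs of 2 long-side bins 1.01 times (1.00 to 1.02, 94752 di-tags). With contacts between both arms of the same chromosome left out the values were 1.10, 0.974 and 1.01, and with bin pairs of over 10 di-tags left out 1.09, 0.970 and 1.01. Short sides thus contacted short sides of other arms above, and long sides below, what their totals gave.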
